A study of Mus musculus with 4 samples.

Results

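Interferon-stimulated genes, the genes that cells switch on when interferon binds its receptors, were described in naive microglia, macrophages that live in the brain tissue. The set held 41 genes chosen by symbol from the 56832 gene rows of the deposited tables, and all 41 had a row and at least 1 count in some library. The labels give 1 group, microglia from the brains of female C57BL/6 mice with no intervention, in 4 libraries numbered replicates 1 to 4. Per the design text, these mice were littermates of transplant recipients and had no transplant themselves. Sorting took CD11b-positive cells with low or intermediate CD45, and their RNA was amplified with a low-input library kit. Graft-derived cells, which the design text also describes, were not analysed here, so there was no comparison between groups. Nothing in the labels ties a library to an animal of its own, so p-values and SDs measure spread between libraries, which may be technical.

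Interferons of type I and type II bind separate receptors on the cell surface. Type I interferon signals through JAK kinases to the factor ISGF3, which binds a promoter element rich in the bases GAAA, the interferon-stimulated response element. The induced proteins block virus entry, sense or destroy foreign RNA, deplete nucleotides or tag other proteins. Resting microglia are known to hold a low tonic interferon tone, and a subset of microglia with high interferon-stimulated genes is known from ageing and injured brain.

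Promoter windows from RefSeq (build GRCm38.p6, 250 bases before to 50 bases after the annotated start) were matched by symbol for 29 of the 41 genes. The core of that element, GAAA, then any 2 bases, then GAAA, searched on both strands with overlapping matches allowed, were present in the windows of 14 of these 29 genes. That was 48.3% (95% exact Clopper-Pearson interval 29.4 to 67.5), beside 3.99% of the 27025 genes with a window in the table. With a C required after the core the count was 9 of 29, or 31.0%, beside 0.944% of all genes. The following 7 windows are shown because they hold the core in genes whose levels contrast below, from steady (Bst2, Oas1a, Ifit3) to uneven between libraries (Ifit1, Ifit3b, Isg15, Ifi207). Each is written 5′ to 3′ on the strand of its gene, and capitals mark the core or its reverse complement, which reads TTTC, any 2 bases, TTTC.
Ifit1, chr19:34640639-34640938, plus strand: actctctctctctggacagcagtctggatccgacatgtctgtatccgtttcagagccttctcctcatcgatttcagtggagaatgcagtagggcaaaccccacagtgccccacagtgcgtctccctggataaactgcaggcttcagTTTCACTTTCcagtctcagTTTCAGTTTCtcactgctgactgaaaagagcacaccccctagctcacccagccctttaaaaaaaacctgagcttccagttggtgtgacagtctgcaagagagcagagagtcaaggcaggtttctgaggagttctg
Ifit3, chr19:34583279-34583578, plus strand: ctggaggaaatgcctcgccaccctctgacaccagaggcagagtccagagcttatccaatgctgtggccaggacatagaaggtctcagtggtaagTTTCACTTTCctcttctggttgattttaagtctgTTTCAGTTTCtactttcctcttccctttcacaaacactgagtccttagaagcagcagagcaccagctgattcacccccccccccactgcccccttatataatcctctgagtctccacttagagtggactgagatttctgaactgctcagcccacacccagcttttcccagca
Ifit3b, chr19:34607707-34608006, plus strand: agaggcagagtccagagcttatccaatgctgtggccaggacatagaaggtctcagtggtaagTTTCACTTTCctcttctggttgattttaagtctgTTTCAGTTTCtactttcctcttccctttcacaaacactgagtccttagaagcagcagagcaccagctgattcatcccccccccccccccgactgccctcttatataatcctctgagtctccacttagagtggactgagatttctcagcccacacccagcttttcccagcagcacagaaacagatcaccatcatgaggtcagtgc
Isg15, chr4:156200769-156201068, minus strand: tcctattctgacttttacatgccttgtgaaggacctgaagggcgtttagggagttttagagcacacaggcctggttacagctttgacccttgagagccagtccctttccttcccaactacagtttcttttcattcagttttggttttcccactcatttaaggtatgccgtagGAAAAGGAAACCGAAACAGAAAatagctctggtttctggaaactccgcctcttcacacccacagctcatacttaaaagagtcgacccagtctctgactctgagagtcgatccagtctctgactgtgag
Oas1a, chr5:120907476-120907775, minus strand: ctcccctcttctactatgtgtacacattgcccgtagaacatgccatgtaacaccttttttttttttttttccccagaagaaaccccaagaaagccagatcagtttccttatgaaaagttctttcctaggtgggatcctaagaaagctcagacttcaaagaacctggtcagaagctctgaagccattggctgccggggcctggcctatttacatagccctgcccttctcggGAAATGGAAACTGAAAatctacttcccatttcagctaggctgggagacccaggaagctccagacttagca
Bst2, chr8:71537423-71537722, minus strand: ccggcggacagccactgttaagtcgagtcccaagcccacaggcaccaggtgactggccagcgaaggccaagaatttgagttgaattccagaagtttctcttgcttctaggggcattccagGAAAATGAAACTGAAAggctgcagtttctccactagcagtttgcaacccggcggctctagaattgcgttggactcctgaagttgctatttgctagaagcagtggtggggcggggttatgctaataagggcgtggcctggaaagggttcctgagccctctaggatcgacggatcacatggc
Ifi207, chr1:173741760-173742059, minus strand: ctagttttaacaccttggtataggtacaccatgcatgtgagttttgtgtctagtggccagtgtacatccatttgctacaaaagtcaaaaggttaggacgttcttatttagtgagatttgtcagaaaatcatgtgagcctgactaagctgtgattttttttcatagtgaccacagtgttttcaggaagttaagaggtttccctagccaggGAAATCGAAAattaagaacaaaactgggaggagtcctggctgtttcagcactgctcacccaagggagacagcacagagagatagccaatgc
The related genes Ifit3 and Ifit3b shared an identical stretch of 169 bases in these windows, which covers both of their motif copies. Isg15 held 3 overlapping copies and Bst2 and Oas1a held 2 overlapping copies each. In Ifitm3, Ifih1 and Eif2ak2 the match lay after the annotated start. The other 15 genes with a window, among them Ifit2, Oasl1, Herc6 and Lgals3bp, did not have these letters in it, which says nothing about factor binding elsewhere.

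**Figure D1:**
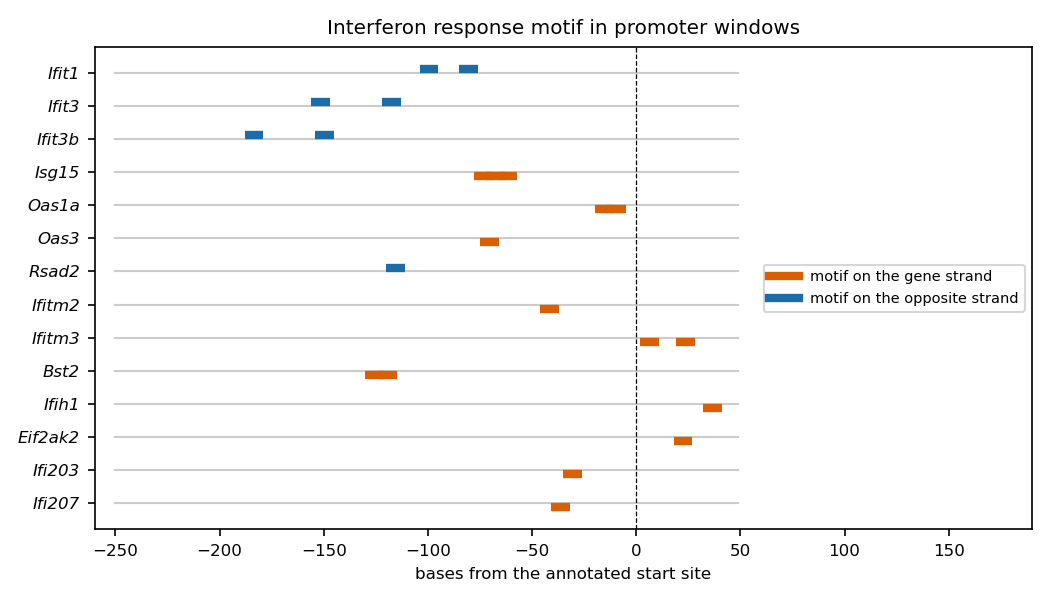
Position of the core motif (GAAA, any 2 bases, GAAA), in bases from the annotated start site (x axis), in the promoter windows of the 14 genes that hold it (rows). Grey lines are the windows, orange bars are matches on the strand of the gene and blue bars are matches on the opposite strand. Ifit1, Ifit3, Ifit3b and Rsad2 carry it on the opposite strand, and most matches lie upstream of the start.

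The libraries held 20360121 to 23292655 reads assigned to genes, and values are in CPM, the counts of a gene scaled to a common total of assigned reads. They differed in complexity, with 14850, 18978, 18431 and 13944 genes having a count in replicates 1 to 4. All 12 microglia markers, such as Tmem119 and P2ry12, reached 100 CPM in every library. Immediate early genes, which respond within minutes to stimuli such as tissue dissociation, also differed, with summed levels of 6270.2, 61289.7, 52583 and 6513 CPM over 18 genes. A count of 0 allows up to 3 counts, which is 0.129 to 0.147 CPM in these libraries. Floors and intervals take in counting error alone, since the reads were amplified and carry no molecular identifier. In bulk libraries fewer cells that express a gene and less RNA per cell cannot be told apart.

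As a whole the set was present at modest and nearly constant total abundance. The 41 genes summed to 2517, 2524, 2463 and 2446 CPM in replicates 1 to 4, or 0.249% ± 0.00388 of all counts (SD, n = 4). Ly6e alone made up 49.9% ± 4.03 of that sum, and without it the other 40 genes summed to 1246 ± 104 CPM. In replicates 1 to 4 the sum without Ly6e was 1180, 1336, 1333 and 1134 CPM. It was higher in replicates 2 and 3, where Ly6e was lower, so the 2 parts offset each other in the total. Under the steady total of all 41 genes, single genes differed widely between libraries. The median member stood at 13.01, 21.8, 22.2 and 8.25 CPM in replicates 1 to 4, with a mean of 16.3 ± 6.86 CPM (SD, n = 4), while the median over the 21681 genes with a count was 2.06 ± 1.35 CPM. At 1 CPM or more in every library were 25 of the 41 genes (61.0%), beside 38.8% of all genes with a count. At 10 CPM or more were 20 genes (48.8%, beside 26.4%), and at 100 CPM or more were Ly6e and Bst2 (4.88%, beside 5.28%). With a mean of 1 CPM or more required, 64.1% of 39 members reached 1 CPM in every library, beside 64.1% of 13109 genes. These shares were 51.3% beside 43.7% at 10 CPM, and 5.13% beside 8.73% at 100 CPM.

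**Figure D2:**
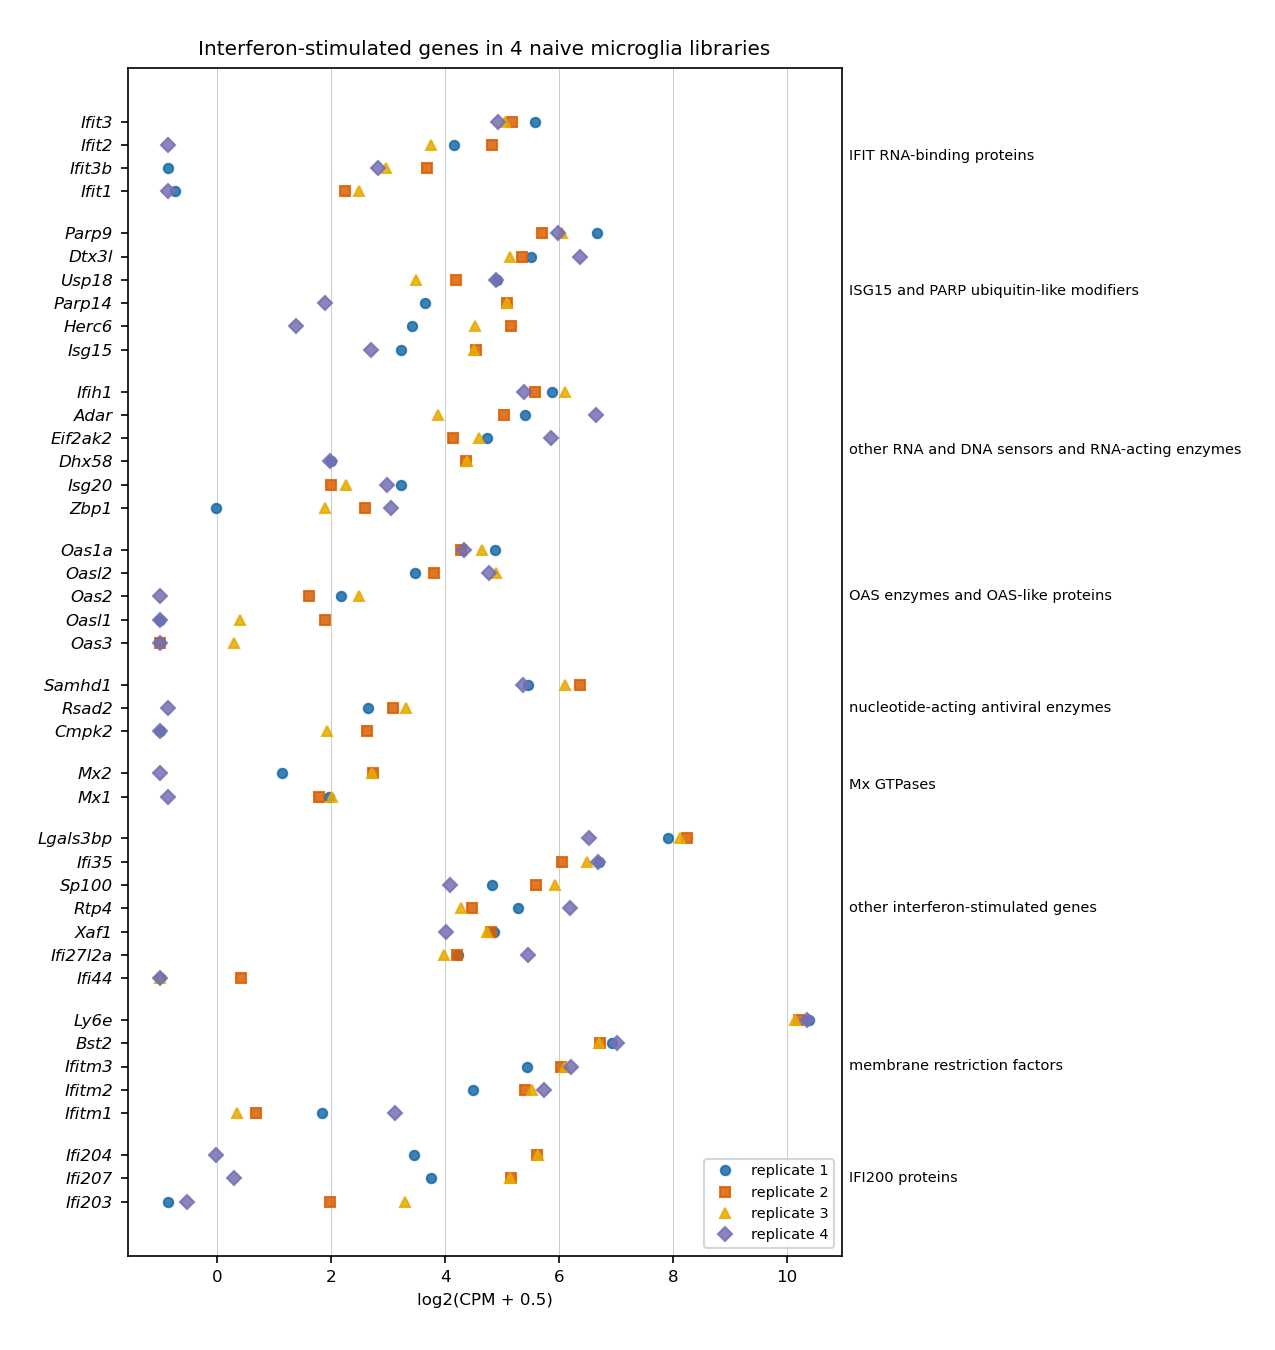
Level of each of the 41 interferon-stimulated genes as log2(CPM + 0.5) (x axis), 1 row a gene, grouped by role, with 1 symbol for each of the 4 libraries. Ly6e lies alone at the top near 1242 CPM, and 12 genes have a library at 3 counts or fewer, at the left edge.

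The membrane restriction factors were the most abundant role group. Ly6e encodes a lipid-anchored surface protein of the Ly6 family, known to hinder coronavirus entry, and gave 1337, 1188, 1129.7 and 1312 CPM in replicates 1 to 4. Its coefficient of variation was 8.00%, so the 4 libraries lay close together. Bst2, the tetherin that holds budding virus at the cell surface, gave 122, 105, 104 and 129 CPM and was also steady, at 10.7%. The IFITM proteins sit in endosomal and surface membranes and block fusion of viruses. Ifitm3 gave 43.0, 64.7, 68.2 and 73.5 CPM. Ifitm2 gave 22.0, 41.7, 45.6 and 52.7 CPM. Replicate 1 was the lowest of both, and the other libraries lay close together. Ifitm1 ran differently, at 3.11, 1.11, 0.773 and 8.25 CPM, with replicates 1 and 4 the higher. The neutrophil marker list, of which 10 of 12 genes reached 1 CPM in every library and none was at 0 throughout, summed to 1529, 301, 288 and 2443 CPM in the same order. Elane, at 14.7, 9.17, 8.41 and 1.38 CPM, and Ly6g, with 43, 28, 0 and 0 counts, were instead highest in replicates 1 and 2. The rest of the neutrophil list was highest in replicates 1 and 4. The endothelial list, with 4 of 10 genes at 1 CPM in every library, summed to 93.5, 231, 205 and 138 CPM. All of its members but Pecam1 and Cldn5 were highest in replicates 2 and 3, unlike Ifitm1. Among these, Cdh5 had 0 counts in replicates 1 and 4. Pecam1 gave 30.8, 12.3, 20.9 and 45.7 CPM, highest in replicates 1 and 4 as Ifitm1 was. Cldn5 was highest in replicate 4, at 29.1 CPM, and next in replicate 2. The part of either cell type in the Ifitm1 levels was not tested.

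Between genes, levels were compared per kb of exon, since longer transcripts collect more reads. Per kb, Ly6e stood at 328 ± 26.3 CPM (SD, n = 4), Bst2 at 127 ± 13.7 CPM and Ifitm3 at 92.0 ± 19.7 CPM. These first 2 places were set apart by more than their spread, while Ifitm3 and the next gene, Lgals3bp at 80.5 ± 33.4 CPM, overlapped. Then came Ifitm2 at 61.8 ± 20.1, Ifi35 at 52.1 ± 10.2 and Ifi27l2a at 51.2 ± 28.2 CPM per kb, which did not differ from each other beyond their spread. The next group held Ifit3, Isg15 and Rtp4 at 20.9 ± 4.42, 19.8 ± 11.6 and 17.9 ± 11.6 CPM per kb, again without separation. The lowest were Oas3 and Ifi44, both under 0.05 CPM per kb.

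Among the IFIT proteins, which bind foreign RNA ends and stall its translation, 1 member was steady and 3 were patchy. Ifit3, the partner that stabilises the IFIT complex, gave 47.5, 35.7, 32.6 and 30.0 CPM in replicates 1 to 4. All 4 libraries lay within a 1.58-fold range. Its near copy Ifit3b had 1, 280, 171 and 134 counts. Ifit1, which recognises RNA caps that lack a methyl group, had 2, 96, 120 and 1 counts and was near 0 in replicates 1 and 4. Ifit2 had 357, 626, 302 and 1 counts, so it was well covered in 3 libraries and absent but for 1 read in replicate 4. Of the distinct 50-base words in Ifit3 transcripts, 51.2% also occur in transcripts of another gene, chiefly Ifit3b, so reads could be dropped or split between these copies. The same share was 45.0% for Ifit3b, 48.5% for Ifitm2 and 57.6% for Oas1a, and those values are uncertain in the same way.

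The OAS enzymes make a short oligoadenylate that activates RNase L, which cuts RNA. Oas1a was their steady member, at 28.8, 18.9, 24.7 and 19.7 CPM in replicates 1 to 4. Oasl2, an OAS-like protein with ubiquitin-like domains, gave 10.7, 13.6, 29.1 and 26.7 CPM, with replicates 3 and 4 the higher. Oas2 had 83, 58, 119 and 0 counts and Oasl1 had 0, 73, 19 and 0 counts. Oas3 had 17 counts in replicate 3 and 0 counts in the other 3 libraries. The Mx proteins, GTPases that trap viral nucleocapsids, were low as well. Mx1 had 70, 67, 83 and 1 counts and Mx2 had 35, 140, 141 and 0 counts. RefSeq lists both as transcribed pseudogenes in the C57BL/6J assembly, a strain known to lack functional Mx proteins.

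Sensors and RNA-acting enzymes included steady and uneven genes. Ifih1, the MDA5 sensor of long double-stranded RNA, gave 58.2, 47.4, 68.0 and 41.4 CPM in replicates 1 to 4, within a 1.65-fold range. Its regulator Dhx58, which encodes LGP2, gave 3.49, 20.1, 20.4 and 3.44 CPM, high in replicates 2 and 3. Adar, which edits adenosine to inosine in double-stranded RNA and so keeps self RNA from MDA5, gave 41.7, 32.5, 14.1 and 99.3 CPM. Eif2ak2, the kinase PKR that halts translation, gave 26.3, 17.2, 23.6 and 57.9 CPM. Replicate 4 was the highest library of both Adar and Eif2ak2. Zbp1, a sensor of Z-form nucleic acid that can start necroptosis, gave 0.485, 5.54, 3.22 and 7.76 CPM, lowest in replicate 1. Isg20, an RNA exonuclease, gave 8.88, 3.50, 4.29 and 7.37 CPM.

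The ISG15 system attaches the ubiquitin-like protein ISG15 to other proteins. Isg15 itself gave 8.88, 22.7, 22.2 and 5.99 CPM in replicates 1 to 4, and Herc6, its main ligase in mice, gave 10.2, 35.1, 22.5 and 2.11 CPM. Both were higher in replicates 2 and 3. Usp18, which removes ISG15 and restrains the type I receptor, ran the other way, at 29.7, 17.8, 10.7 and 29.3 CPM. The partners Parp9 and Dtx3l form an ADP-ribosyl and ubiquitin transferase complex and overlap in the RefSeq annotation, so without a stated strand setting their shared reads cannot be told apart. Of the 41 genes, 13 overlap another gene there, among them Isg15, Usp18, Adar, Eif2ak2, Rtp4 and Ifi27l2a. Any reads shared in these overlaps are uncertain in the same way. Parp9 gave 101, 51.5, 65.7 and 63.0 CPM, highest in replicate 1. Dtx3l gave 45.2, 40.5, 34.6 and 82.0 CPM, highest in replicate 4. The neighbouring gene Parp14, a macrodomain ADP-ribosyltransferase, gave 12.1, 33.6, 33.6 and 3.24 CPM.

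Of the nucleotide-acting enzymes, Samhd1, which degrades the building blocks of DNA, gave 43.4, 81.8, 68.7 and 40.8 CPM in replicates 1 to 4. Rsad2, the viperin that makes a chain-terminating nucleotide, had 119, 180, 219 and 1 counts. Its neighbour Cmpk2, a nucleotide kinase that supplies viperin, had 0, 129, 77 and 0 counts. Rsad2 was thus well covered in replicate 1, where Cmpk2 had no read. The IFI200 proteins, a family of DNA-binding innate sensors, were the least even group. Ifi204 gave 10.4, 48.3, 48.99 and 0.491 CPM and Ifi207 gave 13.01, 35.0, 34.6 and 0.737 CPM. Replicates 2 and 3 were nearly equal in both, and replicate 4 was lower by a factor of 99.7 for Ifi204 and of 47.6 for Ifi207 than the highest library. Ifi203 had 1, 78, 218 and 4 counts. Of the 50-base words of Ifi204, 20.02% occur in another gene, mainly its relative Mndal.

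Among the remaining genes, Lgals3bp, a secreted scavenger-receptor protein that binds galectin-3, gave 240, 304, 280 and 92.2 CPM in replicates 1 to 4, lowest in replicate 4. Ifi35, a binding partner of N-myc interactor, was steady at 104, 65.5, 88.9 and 102 CPM. Rtp4, a chaperone of surface receptors, gave 38.6, 21.8, 18.9 and 72.9 CPM. Sp100, a nuclear body protein, gave 28.0, 48.1, 60.3 and 16.6 CPM. Xaf1, which counters the apoptosis inhibitor XIAP, gave 28.5, 27.6, 26.2 and 15.7 CPM. Ifi27l2a, a small protein of membranes, gave 18.2, 18.0, 15.4 and 43.2 CPM, and replicate 4 stood above 3 libraries that lay close together. Ifi44 had 19 counts in replicate 2 and 0 counts in the other libraries.

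**Figure D3:**
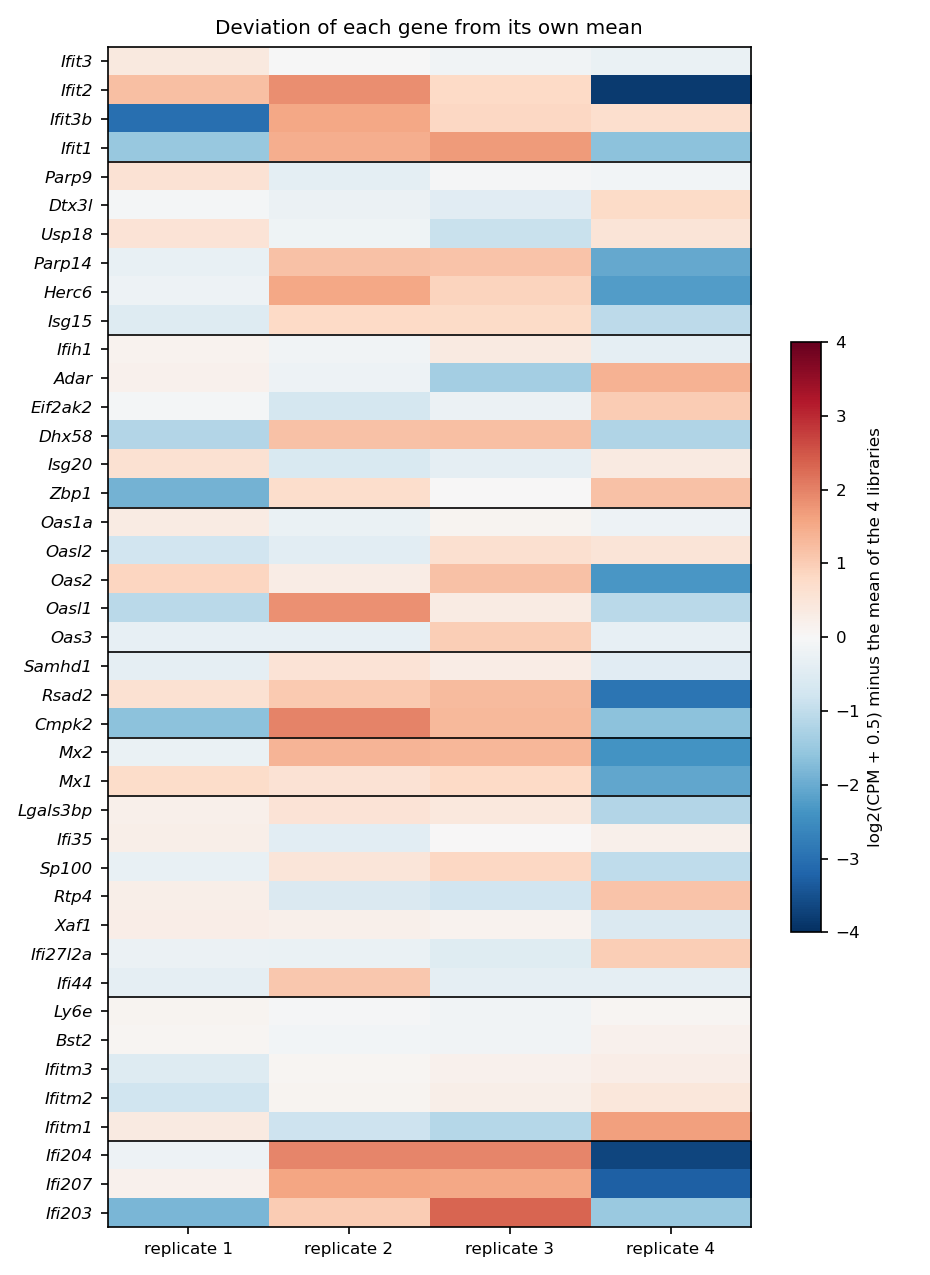
Deviation of each gene in each library from its own mean over the 4 libraries, on the log2(CPM + 0.5) scale (colour, red above and blue below), with black lines between role groups. Ifi204, Ifi207, Herc6, Parp14 and Cmpk2 are red in replicates 2 and 3, while Adar, Eif2ak2, Rtp4 and Dtx3l are reddest in replicate 4, and Ly6e and Bst2 are pale throughout.

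The spread between libraries was tested against that of other genes at the same level. Of the 41 genes, 39 had a mean of 1 CPM or more and entered the edgeR quasi-likelihood fit over 13109 genes, and Oas3 and Ifi44 did not. Of these 39 genes 0 passed the upper-tail F test at an adjusted p of 0.05 (Benjamini-Hochberg over all genes), beside 0 of 13109 genes, or 0%. With no gene of the series passing, the adjusted test could not set members apart from other genes. At an unadjusted p of 0.05 the counts were 0 members and 286 genes (2.18%), and DESeq2 marked 0 members and 15 genes (0.114%) as dispersion outliers. The largest excess was that of Ifi204, with a dispersion 3.18 above the trend on the log2 scale (adjusted p = 0.81 in the edgeR test). Its adjusted p ran from 0.77 to 0.94 over the other edgeR settings. Ifit2, Ifi207 and Adar followed at 2.42, 2.31 and 2.24 above the trend. At the other end Oas1a lay at -3.47, Ly6e at -2.95 and Ifit3 at -2.82. Over the 39 genes the median was 0.39 above the trend, and over all genes tested it was also 0.39.

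**Figure D4:**
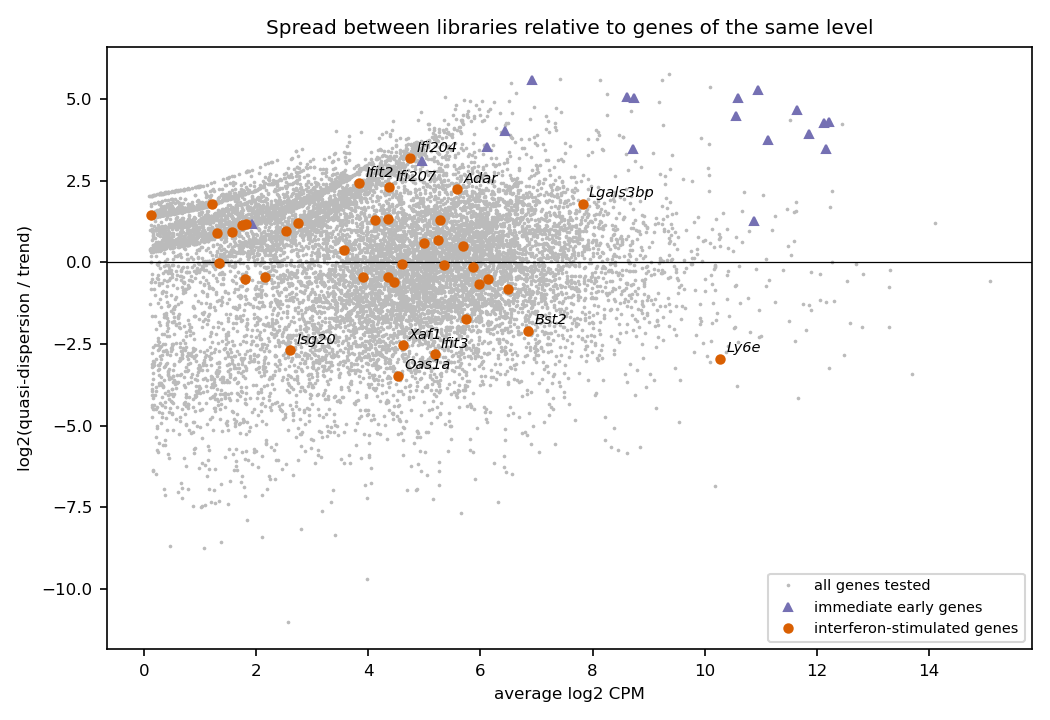
Quasi-dispersion of each tested gene relative to the trend, log2 scale (y axis), against its average log2 CPM (x axis), for 13109 genes in grey, 39 interferon-stimulated genes in orange and 18 immediate early genes in purple. The orange points lie on both sides of the line at 0, from 3.18 for Ifi204 to -3.47 for Oas1a.

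The coefficient of variation was under 25% for 8 of the 39 genes (20.5%, beside 16.8% of all genes tested). These were Ifit3, Oas1a, Ifitm3, Bst2, Ifih1, Xaf1, Ifi35 and Ly6e. It was over 75% for 14 genes (35.9%, beside 33.2%), and the median was 58.6%, beside 55.2%. The set was thus spread about as widely as genes in general. Libraries with 3 counts or fewer were also about as common, at 12.8%, 0%, 0% and 20.5% of the 39 genes in replicates 1 to 4, beside 11.6%, 1.93%, 2.85% and 22.4% of all genes tested.

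Some orders of the libraries recurred. In 16 of the 39 genes (41.03%, beside 27.5% of all genes tested) the highest libraries were replicates 2 and 3. This held for Isg15, Ifit1, Ifit3b, Oasl1, Rsad2, Cmpk2, Mx2, Dhx58, Herc6, Parp14, Samhd1, Sp100, Lgals3bp and all 3 IFI200 genes. In 11 genes (28.2%, beside 20.4%) they were replicates 1 and 4, as for Ly6e, Bst2, Usp18, Adar, Eif2ak2, Dtx3l, Rtp4, Ifi35, Ifi27l2a, Isg20 and Ifitm1. These shares are descriptions without a test. Replicates 2 and 3 were also the libraries with more genes detected and higher immediate early genes. Border-associated macrophage markers, 8 genes, also had higher sums there, at 294, 794, 862 and 441 CPM in replicates 1 to 4. Of these, 7 reached 1 CPM in every library and none was at 0 throughout. Ms4a7 and Cd163 instead were highest in replicate 4, at 50.6, 58.7, 71.4 and 83.5 CPM and at 16.2, 22.2, 24.3 and 32.6 CPM. Oligodendrocyte transcripts, with all 7 markers at 1 CPM in every library, summed to 486, 1789, 1819 and 587 CPM. Among them, Cnp gave 124, 222, 184 and 221 CPM and Mag gave 29.6, 102, 65.8 and 76.8 CPM, both higher in replicate 4 than in replicate 3. Replicates 1 and 4 had the higher sums of the 12 microglia markers, at 67308, 40007, 37741 and 66055 CPM in replicates 1 to 4, and of the neutrophil markers given above. Over all genes, replicates 2 and 3 were also closer to each other than any other pair of libraries, with a chi-square of 51.7 per gene, beside 236 to 414 for the other 5 pairs. The part of library similarity, complexity, stimulation and cell types in either order was not tested.

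Within each library, 18 pairs of relatives or partners were set against each other per kb of exon. Both genes had more than 3 counts in every library in 9 of them, and of these 2 had the first gene higher in all 4 libraries, 2 the second, and 5 were mixed. With no length correction or with transcript lengths the 4 pairs of 1 order kept it, while each of the 5 mixed pairs had another count of libraries under at least 1 of these settings. Ifitm3 exceeded Ifitm2 by 0.62 ± 0.21 on the log2 scale (SD, n = 4), and Ifitm2 exceeded Ifitm1 by 4.87 ± 1.63. Bst2 over Ly6e was the most constant ratio, at -1.37 ± 0.06, and Parp14 over Parp9 gave -3.16 ± 1.74. Among the mixed pairs, Ifih1 over Dhx58 gave 2.73, -0.08, 0.42 and 2.26 in replicates 1 to 4, and Ifih1 was higher in 4 of 4 libraries under both other length settings. Isg15 over Usp18 gave 0.15, 2.24, 2.94 and -0.40, so the balance between the modifier and the enzyme that removes it differed between libraries. Ifi207 over Ifi204 stayed near even, at 0.37, -0.40, -0.44 and 0.62. A two-sided exact permutation test over the 16 sign patterns of 4 libraries cannot reach p = 0.05, and the 4 pairs of 1 order had the smallest p it allows (adjusted p = 0.205 over 18 pairs). In the 9 pairs with a gene at 3 counts or fewer no fold is given. Ifit3 was nevertheless higher than Ifit3b and Ifit1, Oasl2 than Oasl1, Oas1a than Oas2 and Ifi204 than Ifi203 in 4 of 4 libraries.

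The rest of the interferon pathway was read from lists of receptors, kinases, factors, sensors and inhibitors. Interferon genes themselves were nearly silent. Of 21 ligand genes 19 had no read in any library, Ifnb1, the first type I interferon that macrophages make, had 15 counts in replicate 2 alone, and Ifna9 had 1 count in replicate 3. A total of 0 over the list in replicates 1 and 4 allows up to 0.146 and 0.147 CPM. The receptors were plentiful. Ifngr1 and Ifngr2, for type II interferon, averaged 1567 ± 403 and 343 ± 115 CPM (SD, n = 4), and Ifnar1 and Ifnar2, for type I, averaged 113 ± 19.5 and 180 ± 61.3 CPM. Per kb of exon, Ifngr1 stood at 550.3 ± 142 CPM, Ifnar2 at 54.1 ± 18.4 and Ifnar1 at 19.1 ± 3.28. Il10rb, shared with type III interferon, averaged 321 ± 112 CPM, while its specific partner Ifnlr1 had 1 count in all.

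**Figure D5:**
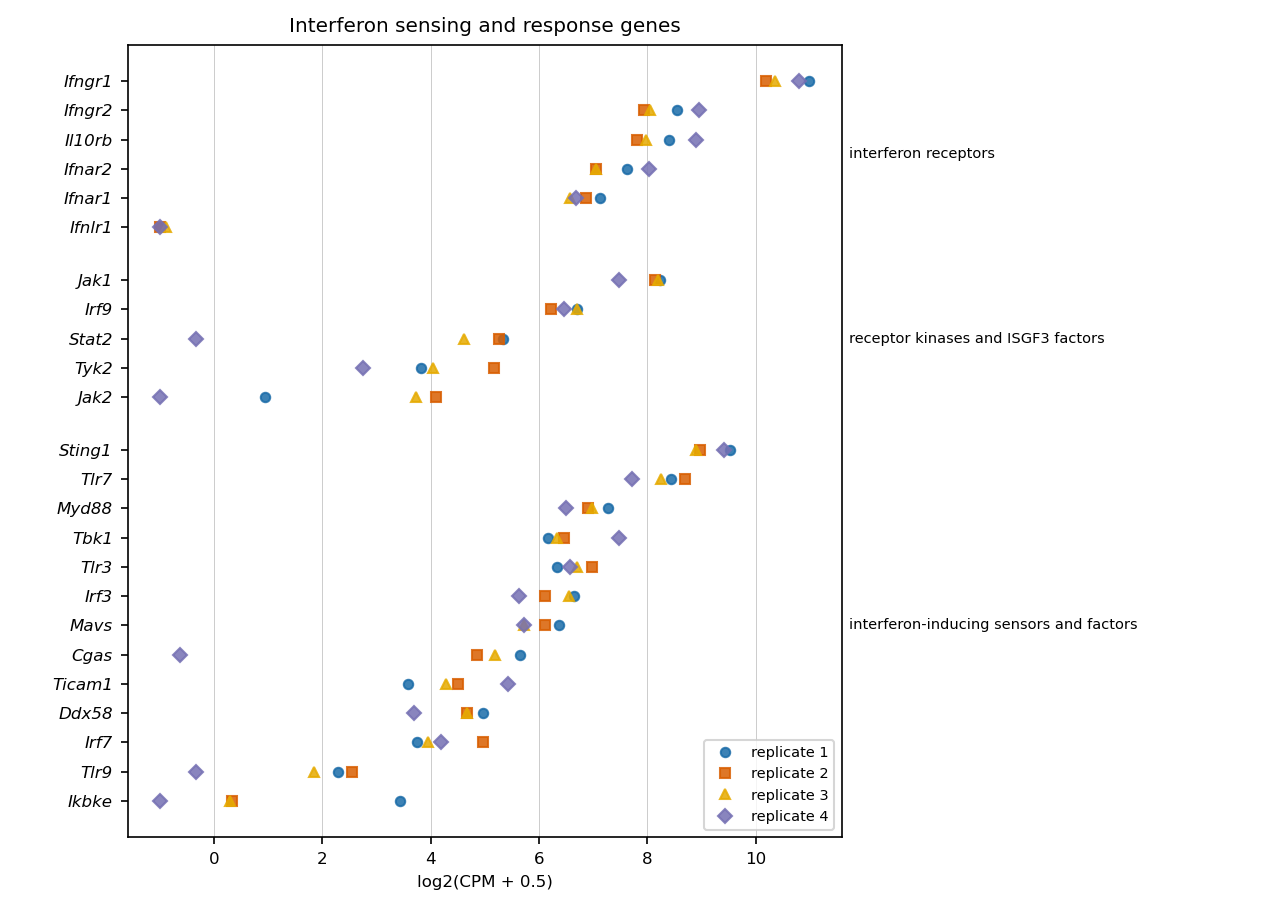
Level of interferon receptors, of receptor kinases and factors downstream of them, and of sensors that induce interferon, as log2(CPM + 0.5) (x axis), with 1 symbol for each of the 4 libraries. The receptors other than Ifnlr1 lie high in every library, while Stat2, Jak2 and Cgas drop to the left edge in replicate 4.

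Genes downstream of the receptors differed in how even they were. Stat2, a subunit of ISGF3, gave 40.0, 37.6, 24.1 and 0.295 CPM in replicates 1 to 4, with 6 counts in replicate 4. Irf9, its DNA-binding subunit, was steady at 104, 74.3, 103 and 87.5 CPM, and the kinase gene Jak1 gave 299, 283, 294 and 176 CPM. The kinase genes Jak2 and Tyk2 were uneven, with 29, 377, 297 and 0 counts for Jak2 and 13.5, 35.6, 15.9 and 6.24 CPM for Tyk2. All 5 of these genes had an adjusted p from 0.81 to 1.00 in the edgeR test. Of the 13 measured sensors and inducing factors 10 reached 10 CPM in every library, led by the DNA-signalling adaptor Sting1 at 599 ± 132 CPM (SD, n = 4) and the RNA receptor Tlr7 at 318 ± 85.6 CPM. Cgas, the enzyme that feeds Sting1, had 1023, 643, 834 and 3 counts. It was the 1 gene of the 13 with an unadjusted edgeR p-value under 0.05, beside 2.18% of all genes tested. Its adjusted p was 0.81 in that test. Irf7, which amplifies type I interferon and is itself interferon-stimulated, gave 12.96, 30.9, 14.9 and 17.8 CPM. Of the feedback inhibitors, Ptpn6 averaged 441 ± 66.7 CPM and was steady, while Socs3 gave 49.7, 769, 334 and 79.0 CPM. Socs3 was likewise the 1 gene of 5 inhibitors under 0.05 before adjustment in the edgeR test (adjusted p = 0.81). The 2 highest libraries of Socs3 were also those with the highest immediate early genes, and the part of stimulation in its levels was not tested.

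A list of 58 further interferon-stimulated genes gave a like picture. Of 56 with a row, 33 had at least 1 CPM in every library (58.9%, beside 38.8% of all genes with a count). At least 10 CPM was reached by 26 of the 56 (46.4%, beside 26.4%). With a mean of 1 CPM or more required, 33 and 26 of 51 genes reached these levels, beside 64.1% and 43.7% of 13109 genes. The median of the list was 20.8 ± 3.70 CPM (SD, n = 4). Its highest members were Lgals9, which encodes galectin-9, at 389 ± 92.6 CPM, Shisa5 at 312 ± 65.8 CPM, the immunoproteasome subunit Psmb8 at 296 ± 58.9 CPM and Tor3a at 175 ± 39.8 CPM. Of its 51 genes tested, 0 passed the edgeR test after adjustment and 1, Ifi209, was under 0.05 before adjustment, a share near the 2.18% of all genes tested. Ifi209 is another IFI200 gene, with 1, 915, 836 and 2 counts in replicates 1 to 4, and like Ifi203, Ifi204 and Ifi207 was highest in replicates 2 and 3. Over the whole list the median dispersion lay 0.57 above the trend on the log2 scale, beside 0.39 for all genes tested.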

How the data were processed

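The authors deposited raw counts of reads per gene symbol, with a file for each library. Tools named in the submitters' processing notes are HTSeq 0.11.2, SAMtools 1.16.1 and STAR 2.7.10a, with build GRCm39. Annotation, filters and strand setting: not given in the sources used here. The 5 summary rows at the end of each file, for reads without a gene, 20.8% ± 1.28 (SD, n = 4) of listed reads, were left out of totals and tests. Totals were 20360121 to 23292655 counts per library. No library pair agreed within sampling noise, replicates 2 and 3 being the closest.

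CPM were counts scaled to these totals. Exon lengths were unions of exons in GENCODE M21 (GRCm38), matched by symbol for all 41 genes. Promoters and neighbours came from RefSeq (GRCm38.p6). Coordinates of promoters are therefore on that build, not on that of the counts.

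Spread between libraries was tested with edgeR 4.0.16 in R 4.3.3 on genes with a mean of 1 CPM, with TMM scaling, a quasi-likelihood fit of the intercept alone with 3 residual degrees of freedom and an upper-tail F test against the trend, Benjamini-Hochberg adjusted over all genes. The biological coefficient of variation was 1.05, and the prior had 2.88 degrees of freedom. Pair ratios used (count + 0.5) per kb of exon. DESeq2 1.42.0 supplied alternatives, and Python 3.11.15 did the rest. The fit was also run on simulated counts with a smaller spread than these libraries had. That run does not show what the fit could find here.

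The genes and lists were chosen with earlier results of these data known. Values in every library, in CPM or, for genes with a library at 3 counts or fewer, in counts, were set to be given for genes with a mean of 10 CPM or more and for the highest and lowest of each role group. The other members are given in the same way beyond that rule, to account for all 41. Of pathway lists, the 4 highest genes, all receptors, Stat2, Irf9, Irf7 and genes with the smallest p-values could be named. Tmem119, P2ry12, Elane, Ly6g, Cdh5, Pecam1, Ms4a7, Cd163, Cnp, Mag and Mndal were named after their values were seen. A listed pathway gene is not reported here.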

Additional observations from a re-analysis of the deposited data

Results flagged for a closer look

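In a group of 4 libraries a value was picked out where its gap to the nearest other library, divided by the range of all 4, was above Dixon's 95% critical value. Of 63 sets of 4 values checked, 4 met this, and chance alone picks out about 1 in 20. Mx1 had 70, 67, 83 and 1 counts in replicates 1 to 4, so replicate 4 stood apart at the low end (ratio 0.830). Ifi27l2a gave 43.2 CPM in replicate 4, against 15.4 to 18.2 CPM in the other libraries (ratio 0.897). The log2 ratio of Adar over Eif2ak2 per kb of exon was -1.41 in replicate 3, against -0.0014 to 0.25 in the other libraries (ratio 0.848). Jak1 gave 176 CPM in replicate 4, against 283 to 299 CPM in the other libraries (ratio 0.871). Replicate 4 was the library with the fewest genes detected, 13944, and its part in these values was not tested.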

How the results depend on the processing

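The count of 25 genes at 1 CPM or more in every library stayed at 25 with TMM or DESeq2 scaling, was 20 at a threshold of 10 CPM, and ran from 25 to 32 with 1 replicate left out, 32 without replicate 4. The median of 16.3 CPM ran from 14.3 to 19.0 CPM with 1 replicate left out. In the edgeR test 0 genes of the series passed under every filter, scaling and prior and with each replicate left out. The adjusted test could therefore not set members apart from other genes in any setting. DESeq2 marked 15 genes of the series and 0 of the set as dispersion outliers. Before adjustment, Ifi204 passed the 0.05 threshold of the edgeR test with the filterByExpr filter, with no filter, with a robust prior and without replicate 1, and Ifi207 did with the filterByExpr filter.

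Signs of 3 mixed gene pairs turned. Without length correction the mean log2 ratio was -0.65 for Isg15 over Usp18, -0.021 for Ifi207 over Ifi204 and 0.41 for Adar over Eif2ak2, against 1.23, 0.04 and -0.26 per kb. With the longest coding transcript as length, chosen after seeing the data, Ifi207 over Ifi204 was -0.60, with Ifi207 lower in 4 of 4 libraries, and Parp9 was higher than Dtx3l in 4 of 4. With 1 replicate left out, Ifi207 over Ifi204 ran from -0.16 to 0.20, negative without replicate 1 (-0.08) or 4 (-0.16), and Adar over Eif2ak2 ran from -0.43 to 0.12, positive without replicate 3. The share of promoters with the motif was 31.0% with the longer letters, beside 0.944% of all genes. Each match to the longer letters is also a match to the core, so these shares could not rise. No paired analysis was possible because the labels give 1 group only.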
